A study of Mus musculus with 15 samples.

Results

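The genes of T cells and natural killer (NK) cells examined here were Cd3d, Cd3e, Cd3g, Cd4, Cd8a, Cd28, Lck, Cd2, Nkg7 and Gzma, measured in the femur of male C57BL/6J mice. A probe was taken as a member when its transcript accession belonged to one of these symbols. All 10 genes were found, on 14 of the 55681 probes of the array, of which 28026 carried a symbol. Each of 15 arrays compared the RNA of 1 mouse, labelled with Cy5, with a commercial reference pool of mouse cell line RNA, labelled with Cy3. The labels give 9 weeks as the age, which per the study's methods was the age at surgery, with tissue collected about a month later. The 4 G-Sham and 4 FLT-Sham mice were unoperated and stayed on the ground or were flown to the International Space Station. The 4 G-Surgery and 3 FLT-Surgery mice received a femoral segmental bone defect (SBD) shortly before launch, filled with a scaffold and a saline-soaked collagen sponge. The labels call the tissue callus in every group, but in sham mice it was the same stretch of intact femoral midshaft, ground whole with whatever marrow and adherent tissue it held. The study asked how flight changes repair of such a defect.

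T cells recognise antigen through a receptor whose signal is carried into the cell by the CD3 chains, of which CD3 epsilon, delta and gamma are encoded by Cd3e, Cd3d and Cd3g. CD4 and CD8 are co-receptors that mark helper and cytotoxic T cells and bring the kinase LCK to the receptor, while CD28 gives the co-stimulatory signal and CD2 is an adhesion receptor of T and NK cells. NKG7 and granzyme A belong to the cytotoxic granules of NK cells and killer T cells. Lymphocytes are found in bone marrow and enter a fracture site during healing.

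Over the 15 arrays the log ratios of Cd3e, Nkg7 and Lck were the most alike among the genes measured on every array, so the sequence before their start sites is shown. The table of RefSeq promoters (GRCm38.p6) held 7 of the 10 genes. Each line gives the 250 bases before a start, 5′ to 3′ on the gene's strand, with 2 starts listed for Lck. Capitals mark matches on either strand to TGTGGT, the core bound by RUNX factors, AGGAAG, a core bound by ETS factors, or TATAAA, the TATA box.
Cd3e, chr9:45009612-45009861, minus strand: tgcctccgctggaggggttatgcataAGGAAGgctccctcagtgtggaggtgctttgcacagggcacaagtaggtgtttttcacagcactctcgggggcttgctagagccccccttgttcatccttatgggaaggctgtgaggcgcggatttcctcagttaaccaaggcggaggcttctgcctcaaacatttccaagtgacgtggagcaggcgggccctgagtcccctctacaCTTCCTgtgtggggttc
Nkg7, chr7:43436888-43437137, plus strand: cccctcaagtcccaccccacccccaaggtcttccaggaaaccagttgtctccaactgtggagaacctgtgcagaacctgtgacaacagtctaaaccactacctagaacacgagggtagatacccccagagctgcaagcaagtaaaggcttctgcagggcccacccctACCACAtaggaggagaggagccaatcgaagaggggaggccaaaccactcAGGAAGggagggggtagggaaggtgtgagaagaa
Lck, chr4:129573642-129573891, minus strand: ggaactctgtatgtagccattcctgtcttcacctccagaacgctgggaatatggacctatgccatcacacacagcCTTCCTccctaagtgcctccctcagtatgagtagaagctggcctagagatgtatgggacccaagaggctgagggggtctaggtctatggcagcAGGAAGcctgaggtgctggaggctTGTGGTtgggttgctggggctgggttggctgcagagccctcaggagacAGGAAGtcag
Lck, chr4:129558373-129558622, minus strand: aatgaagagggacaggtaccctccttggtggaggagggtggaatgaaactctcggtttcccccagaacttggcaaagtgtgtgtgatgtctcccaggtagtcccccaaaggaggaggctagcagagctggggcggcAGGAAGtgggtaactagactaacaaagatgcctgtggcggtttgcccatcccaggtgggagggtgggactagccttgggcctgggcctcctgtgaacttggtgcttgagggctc
AGGAAG or its reverse complement stood in all 4 windows, at 2 places before Cd3e, 1 before Nkg7, 3 before one Lck start and 1 before the other. TGTGGT or its reverse complement stood before Nkg7 and before the Lck start at the higher coordinate. TATAAA was in none of the 4. Among the 32851 promoters of the table, 29.5% held AGGAAG, 14% held TGTGGT and 12.4% held TATAAA within the same 250 bases, so these letters are common and mark no site by themselves.

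Fewer probes gave signal in the femur channel than in the reference. The study describes its bone RNA as of sub-optimal quality, comparable between flight and ground, and the part of this in detection was not tested. Between 12493 and 21461 probes were well above background in Cy5, a flag of the scanner software, against 25860 to 35259 in the Cy3 reference. FLT-Surgery had the narrowest range, with 12493 to 14260 probes, and FLT-Sham replicate 8, with 14813, stood below the other FLT-Sham arrays, which had 19424 to 21461. The software multiplied the Cy5 signal by a factor of 19.8 to 59.5 to match the dyes, with the 2 largest factors on FLT-Surgery replicates 3 and 5. G-Sham replicate 4 lay alone on its slide. The other 14 arrays lay on 2 slides of 7, each of which held all 4 groups.

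Only 4 of the 10 genes had a probe above background in the femur on all 15 arrays, namely Cd3e, Cd4, Lck and Nkg7. Cd28 was above background on 9 arrays, Cd2 on 8, Gzma on 4, Cd8a on 1 and Cd3d on 1, and Cd3g on none. The reference channel was above background on all 15 arrays for Cd3d and for Cd3g, so both probes gave signal on every slide. The T cell label was therefore carried unevenly, since Cd3e was measured everywhere but the other CD3 chains of the same receptor were not. The values below are log2 ratios of femur over reference, which place a gene among arrays but not against other genes, and a bulk measurement cannot tell fewer cells of a type from less RNA per cell.

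**Figure D1:**
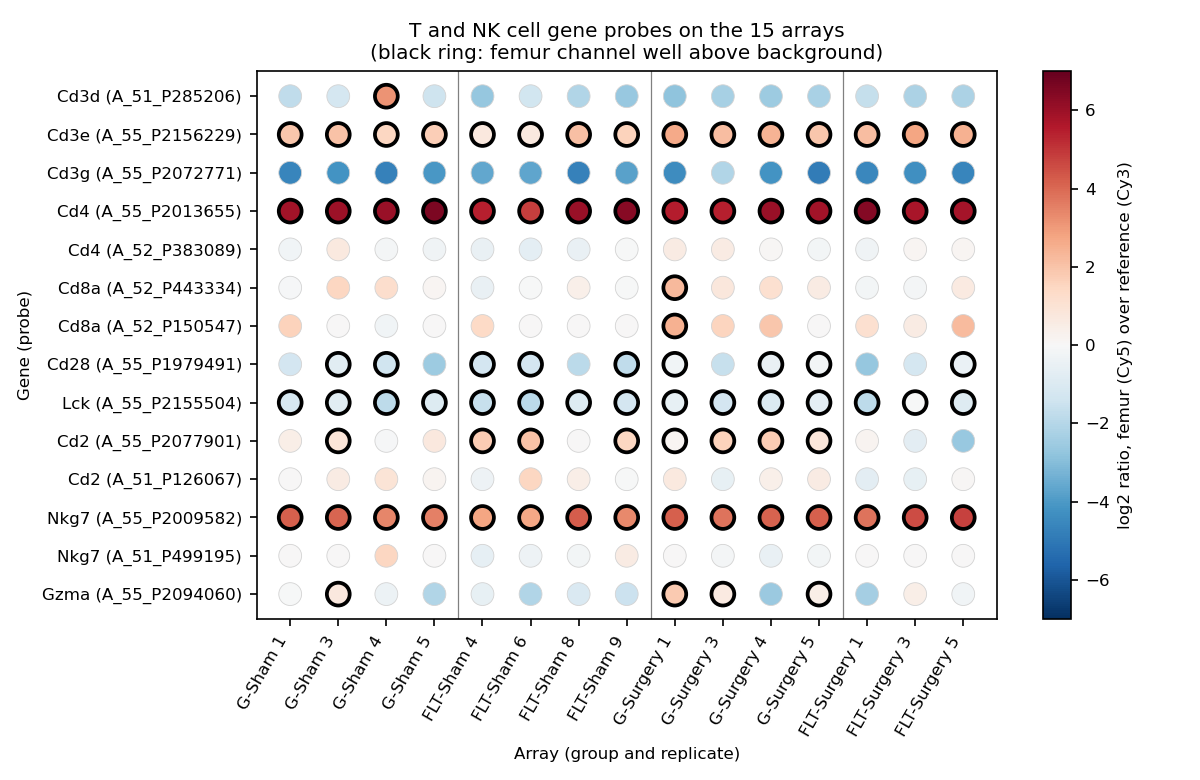
Log2 ratio of femur over reference (colour) for the 14 probes (rows) on the 15 arrays (columns, grouped), with a black ring where the femur channel was well above background. Ringed rows run through all 15 arrays for Cd3e, Lck and 1 probe each of Cd4 and Nkg7, while Cd3g has no ring and Cd3d has 1, on G-Sham replicate 4.

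Cd3e was 1.96, 2.06, 1.48 and 1.73 in G-Sham replicates 1, 3, 4 and 5. In FLT-Sham replicates 4, 6, 8 and 9 it was 0.73, 0.68, 2.11 and 1.62. G-Surgery replicates 1, 3, 4 and 5 gave 2.64, 2.15, 2.45 and 1.92, and FLT-Surgery replicates 1, 3 and 5 gave 2.14, 2.75 and 2.49. The lowest values came from FLT-Sham replicates 4 and 6. FLT-Surgery, from 2.14 up, lay narrowly above FLT-Sham, which reached 2.11, and G-Sham, which reached 2.06. How many of all probes lay apart in this way was not counted. From the highest mean down, the order was FLT-Surgery at 2.46 ± 0.31 (SD, n = 3), G-Surgery at 2.29 ± 0.32 (n = 4), G-Sham at 1.81 ± 0.26 (n = 4) and FLT-Sham at 1.28 ± 0.70 (n = 4). Each group overlapped its neighbour in this order. Before dye scaling the Cd3e spot stood only 70.1 to 228 intensity units above local background.

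The other CD3 chains were near the floor of the measurement. Cd3d was above background on G-Sham replicate 4, where the log2 ratio was 3.17 and the Cy5 signal 826, while on the other 14 arrays it lay between -2.80 and -1.23 with signals of at most 52.9. Cd3g had ratios from -4.89 to -2.12, with its highest value on G-Surgery replicate 3, and its Cy5 signal was not well above background on any array. Neither gene could be compared between groups.

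The co-receptor genes each had 2 probes, which differed in detection for Cd4 but not for Cd8a. The brighter Cd4 probe, A_55_P2013655, was above background on all 15 arrays with ratios of 4.86 to 6.59. Its group means were 6.12 ± 0.32 in G-Sham (n = 4), 6.01 ± 0.36 in FLT-Surgery (n = 3), 5.71 ± 0.29 in G-Surgery (n = 4) and 5.68 ± 0.67 in FLT-Sham (n = 4), and all groups overlapped. The other Cd4 probe, A_52_P383089, is printed in 10 spots per array and was above background in the femur on no array, with 9 of 150 spots flagged. Its ratios were -0.69 to 0.69. The high ratio of Cd4 thus rests on 1 probe that the second did not show. Cd8a, which marks cytotoxic T cells, was above background on G-Surgery replicate 1 alone, with both of its probes, at ratios of 2.27 and 2.48. For the first of these probes the call rested on 5 of its 10 spots. On the other 14 arrays the Cd8a probes gave -0.54 to 1.51 and -0.23 to 2.24, none of them above background.

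Cd28 was above background on 2 of 4 G-Sham, 3 of 4 FLT-Sham, 3 of 4 G-Surgery and 1 of 3 FLT-Surgery arrays. Its ratio averaged -0.64 ± 0.67 in G-Surgery, -1.48 ± 1.13 in FLT-Surgery, -1.51 ± 0.74 in G-Sham and -1.55 ± 0.32 in FLT-Sham. All 4 groups overlapped, and FLT-Surgery alone ran from -2.71 to -0.48.

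Lck, the kinase next to the receptor, ran from -1.89 to -0.05 and was above background on every array. G-Sham replicates 1, 3, 4 and 5 gave -1.19, -0.77, -1.83 and -0.98, and FLT-Sham replicates 4, 6, 8 and 9 gave -1.63, -1.89, -0.94 and -1.27. In G-Surgery the values were -0.59, -1.28, -1.03 and -0.70 for replicates 1, 3, 4 and 5. FLT-Surgery spanned nearly the whole range by itself, with -1.84, -0.05 and -0.91 in replicates 1, 3 and 5. All 4 groups overlapped.

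Cd2 is the gene of the adhesion receptor. Its brighter probe, A_55_P2077901, read 0.49, 0.89, -0.08 and 0.75 in G-Sham replicates 1, 3, 4 and 5, and 1.8, 2.06, 0 and 1.5 in FLT-Sham replicates 4, 6, 8 and 9. G-Surgery replicates 1, 3, 4 and 5 read 0.13, 1.64, 1.75 and 0.84. FLT-Surgery replicates 1, 3 and 5 read 0.19, -0.74 and -2.63. The femur signal was above background on 4 of 4 G-Surgery, 3 of 4 FLT-Sham, 1 of 4 G-Sham and 0 of 3 FLT-Surgery arrays. FLT-Surgery was lowest in mean, at -1.06 ± 1.44 (n = 3), against 1.34 ± 0.92 in FLT-Sham, 1.09 ± 0.76 in G-Surgery and 0.51 ± 0.43 in G-Sham, yet its replicate 1 lay within the range of each of the other groups. The second Cd2 probe, A_51_P126067, was above background on no array and averaged -0.41 ± 0.41 in FLT-Surgery against 0.26 ± 0.58 in G-Surgery.

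Of the cytotoxic granule genes, Nkg7 was high throughout. Its brighter probe, A_55_P2009582, gave 4.21, 4.09, 3.44 and 3.52 in G-Sham replicates 1, 3, 4 and 5, and 2.77, 2.69, 4.25 and 3.37 in FLT-Sham replicates 4, 6, 8 and 9. G-Surgery replicates 1, 3, 4 and 5 gave 4.20, 3.78, 4.11 and 4.17, and FLT-Surgery replicates 1, 3 and 5 gave 3.82, 4.56 and 4.76. As for Cd3e, the lowest values were those of FLT-Sham replicates 4 and 6. The means were 4.38 ± 0.50 in FLT-Surgery (n = 3), 4.07 ± 0.19 in G-Surgery (n = 4), 3.82 ± 0.39 in G-Sham (n = 4) and 3.27 ± 0.72 in FLT-Sham (n = 4), with overlap between every pair of groups. The second Nkg7 probe, A_51_P499195, was above background in neither channel on any array. Gzma, which encodes granzyme A, was above background on G-Sham replicate 3 and on G-Surgery replicates 1, 3 and 5. Its ratio was 1.82 on G-Surgery replicate 1 and -2.60 on G-Surgery replicate 4, so the range inside that group was wider than any difference between groups.

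**Figure D2:**
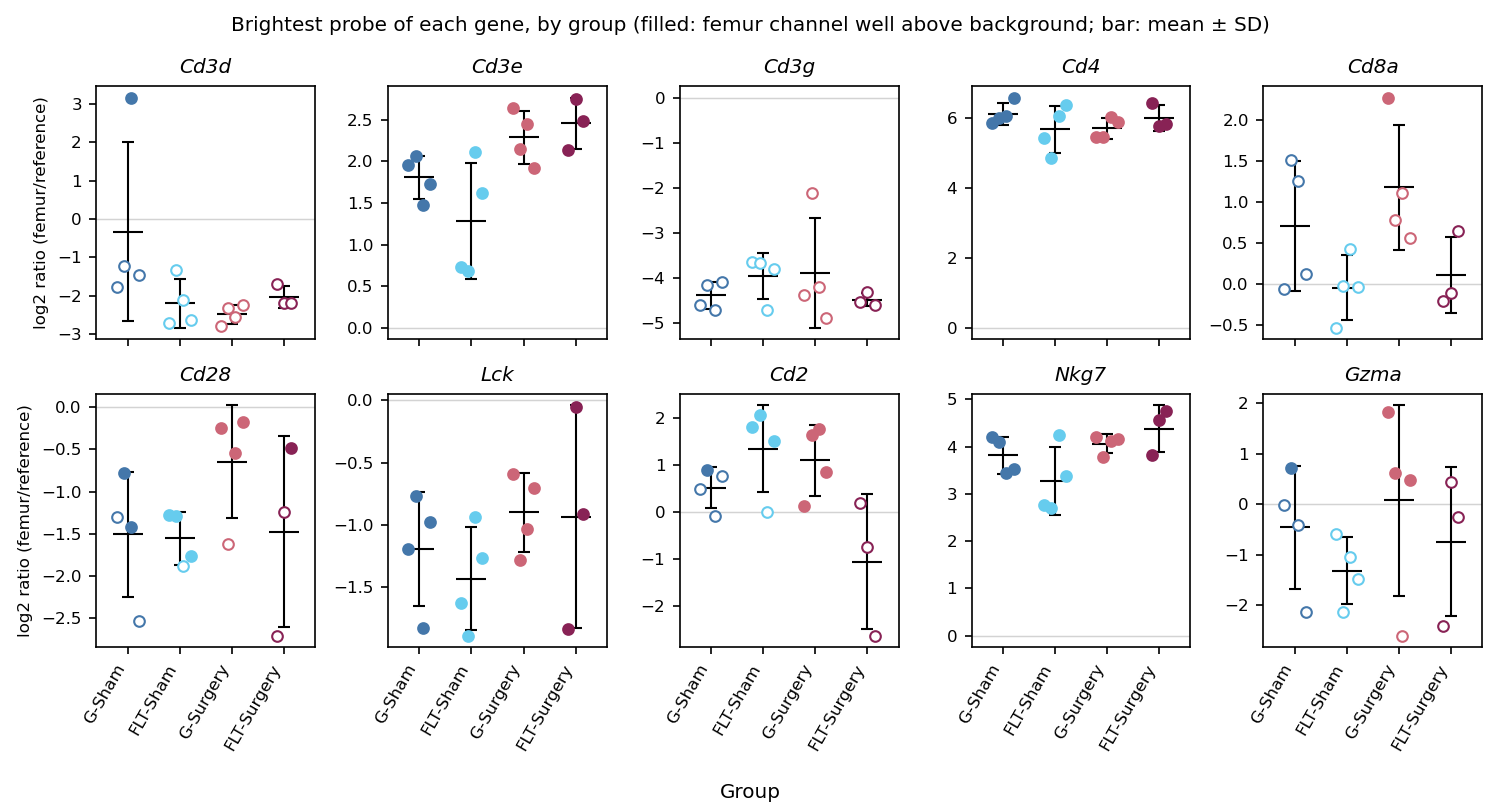
Log2 ratio of femur over reference for the brightest probe of each of the 10 genes, by group, with 1 point per array, filled where the femur channel was well above background, and a bar for the mean ± SD. The 3 FLT-Surgery points of Cd2 are all open, and those of Cd3e lie narrowly above all FLT-Sham and G-Sham points.

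Differences between groups were tested with limma on the probes above background on at least 3 of the arrays compared, and a probe passed the study's cut-off when it changed 2-fold or more with p, before adjustment, no higher than 0.01. The p-values printed are limma's after Benjamini-Hochberg adjustment over all probes tested in that comparison. The filter left 6 or 7 of the 14 member probes in each comparison, 1 per gene, and a probe could pass through only the group in which it was high. This was so for Cd2 and Gzma wherever FLT-Surgery entered, since neither was above background on any FLT-Surgery array. Their fold there is given as a bound between group means, which carries no sampling error. Differences of the ratios as listed, to which the p-values belong, are also printed and are not exact sizes. Cd3d, Cd3g and Cd8a were tested in none.

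For flight in unoperated mice, FLT-Sham was compared to G-Sham. None of the 6 member probes tested passed the cut-off, against 2% of all 19739 probes tested. The difference of Cd3e was -0.52 (SE 0.40, adjusted p = 0.561) and that of Nkg7 -0.54 (SE 0.43, adjusted p = 0.563), while that of Cd2 was 0.83 (SE 0.49, adjusted p = 0.531). The 95% interval of the difference ran from -1.44 to 0.39 for Cd3e and from -0.30 to 1.96 for Cd2, and both intervals include a 2-fold change. Within slides, the Cd3e difference was -1.33 on the first and -0.37 on the second. Without FLT-Sham replicate 8, Cd2 passed the cut-off with a difference of 1.28 (adjusted p = 0.0829). In that fit 2071 of all 19415 probes tested passed as well, a larger share than the 2% above. With further loess and no array left out, the Cd2 difference turned to -0.09.

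For flight in mice with a defect, FLT-Surgery was compared to G-Surgery. None of the 7 member probes tested passed the cut-off, against 3.14% of 16548 probes. Group means of the normalized Cy5 channel put Cd2 at least 2.41-fold higher in G-Surgery (adjusted p = 0.28 for the ratios as listed). For this bound, FLT-Surgery signals were raised, where lower, to the lowest signal that counted as well above background on their array. The mean log2 Cy5 signal was 8.13 in G-Surgery and 6.03 in FLT-Surgery. The ratios as listed differed by -2.15 (interval -3.80 to -0.51), with -2.59 on the first slide and -1.46 on the second. With slide as a block Cd2 passed the cut-off (-2.26, adjusted p = 0.114), as did 7.8% of all probes tested. It also passed without FLT-Surgery replicate 1 (adjusted p = 0.0512), as did 12.7% of all probes tested in that fit. With normexp the difference shrank from -2.15 to -0.32. Cd3e differed by 0.16 (interval -0.52 to 0.85), Nkg7 by 0.32 (-0.40 to 1.03), Cd4 by 0.30 (-0.40 to 1.0) and Lck by -0.03 (-1.06 to 0.99). The interval for Cd28 was wider, from -2.21 to 0.55. By the same bound on means Gzma was at least 1.19-fold higher in G-Surgery, where it was above background on 3 of 4 arrays. Its ratios as listed differed by -0.82 (interval -3.37 to 1.74, adjusted p = 0.716), and the sign turned in 3 other settings.

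For surgery on the ground, G-Surgery was compared to G-Sham. None of the 7 member probes tested passed the cut-off, against 2.59% of 17675 probes. Of the 7, 6 had positive differences, with a median of 0.49 over them and 0.14 over all probes tested. Cd28 was at 0.86 (SE 0.46, adjusted p = 0.518) and Cd3e at 0.49 (SE 0.26, interval -0.11 to 1.09, adjusted p = 0.519). Cd4 was the exception, at -0.41 (SE 0.27, adjusted p = 0.586).

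For surgery in flight, FLT-Surgery was compared to FLT-Sham. None of the 6 member probes tested passed the cut-off, against 6.65% of 19136 probes, and this comparison shares its arrays with the first and the second. The difference of Cd3e was 1.17 (SE 0.47, interval 0.10 to 2.25, adjusted p = 0.187) and that of Nkg7 1.11 (SE 0.50, interval -0.04 to 2.26, adjusted p = 0.217). By the bound on means Cd2 was at least 2.6-fold higher in FLT-Sham (adjusted p = 0.156 for the ratios as listed). FLT-Sham was above background on 3 of its 4 arrays, and without its replicate 4, 6 or 9 Cd2 fell below the filter. With normexp the Cd2 difference was -0.51 instead of -2.40, under the same offset. Single arrays and the weighting changed the calls. Without FLT-Sham replicate 8, Cd2, Cd3e at 1.45 and Nkg7 at 1.43 passed the cut-off, with adjusted p-values of 0.0264, 0.0342 and 0.0354. In that fit 26.2% of all probes tested passed as well. Without FLT-Surgery replicate 1, Cd2 passed it (adjusted p = 0.0665), as did 13% of all probes tested. With no array left out, 2 members passed in the fit of all 15 arrays, where 13.6% of all probes did. With array weights 4 members passed, and 48.5% of all probes. On the first slide, with 2 arrays against 1, the differences of Cd3e and Nkg7 were both 1.89, and on the second, with 1 against 3, they were 0.67 and 0.39. Those of Cd2, as listed, were -3.48 and -1.0.

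The interaction asked whether surgery changed a gene differently in flight than on the ground. Before adjustment, 5.33% of 21777 probes passed 0.01, as did 1 of the 7 member probes tested, Cd2, with an interaction of -2.98 (SE 0.89, interval -4.90 to -1.07, adjusted p = 0.172). That value uses FLT-Surgery ratios not above background and so has no exact size. It was no longer past that threshold when any one of 6 arrays was left out, namely FLT-Surgery replicate 5, FLT-Sham replicates 4 and 6, G-Sham replicate 4 and G-Surgery replicates 3 and 4, and came closest to 0 at -2.20 without FLT-Surgery replicate 5. With slide as a block it was -2.78 (adjusted p = 0.274), with further loess -1.82 (adjusted p = 0.337) and with normexp, under the same offset, -0.67 (adjusted p = 0.268). None of them was past the threshold. Genes of other cells passed the same threshold in the same direction, namely 2 of 7 neutrophil, 2 of 7 general leukocyte, 2 of 4 endothelial, 1 of 4 erythroid and 1 of 6 osteoblast and osteocyte genes tested, and their part in the Cd2 value was not tested. The interaction of Nkg7 was 0.86 (adjusted p = 0.373) and that of Cd3e 0.69 (adjusted p = 0.444).

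**Figure D3:**
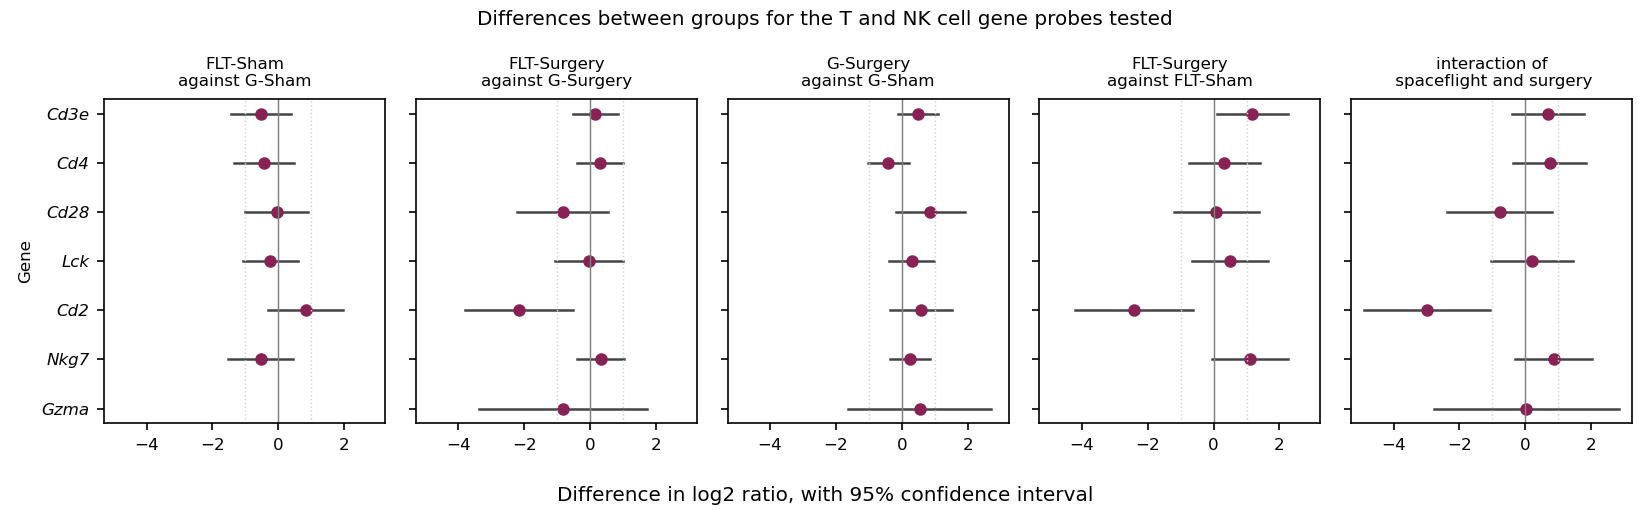
Differences in log2 ratio (points) with 95% confidence intervals (lines) for the member probes tested in each of the 4 comparisons and in the interaction, with dotted lines at a fold change of 2 in either direction. Cd2 lies below 0 in both comparisons of FLT-Surgery and in the interaction, where FLT-Surgery was not above background so that its points are not exact sizes, and Cd3e and Nkg7 lie above 0 in FLT-Surgery against FLT-Sham.

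The brightest probes of the genes were compared with each other over the 15 arrays. The closest pair was Cd3e and Nkg7 with a Spearman coefficient of 0.79, then Lck and Nkg7 with 0.75, and Cd3e and Lck with 0.62. Cd3g and Cd2 reached 0.72, but Cd3g was above background nowhere. Cd4 was unrelated to Nkg7, with 0.02. These coefficients describe arrays that share 1 reference and 1 dye correction.

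The same 2 genes also followed that correction. Over the 15 arrays, the log ratio of Nkg7 rose with the logarithm of the Cy5 dye factor (Pearson r = 0.76, permutation p = 0.00105, adjusted p = 0.0042, Spearman rho = 0.74, permutation p = 0.00203, adjusted p = 0.00812, 4 genes tested, two-sided). For Cd3e the coefficients were 0.69 (permutation p = 0.0039, adjusted p = 0.0078) and 0.67 (permutation p = 0.00736, adjusted p = 0.0147). Leaving out FLT-Surgery replicates 3 and 5, the arrays farthest from the median factor, gave r of 0.64 for Nkg7 and 0.58 for Cd3e. Within slides of 7 arrays the rho was 0.71 and 0.75 for Nkg7 and 0.61 and 0.64 for Cd3e. For Lck r was 0.55 (permutation p = 0.0319, adjusted p = 0.0425), falling to 0.31 without those 2 arrays, with rho of 0.40 (permutation p = 0.138, adjusted p = 0.184). For Cd4 r was 0.07 (permutation p = 0.808, adjusted p = 0.808) and rho 0.05 (permutation p = 0.863, adjusted p = 0.863). The factor was 27.5 to 59.5 in FLT-Surgery and 19.8 to 41.1 in FLT-Sham, so it moved with the groups in the comparison where Cd3e and Nkg7 differed most, and its part in that difference was not tested.

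**Figure D4:**
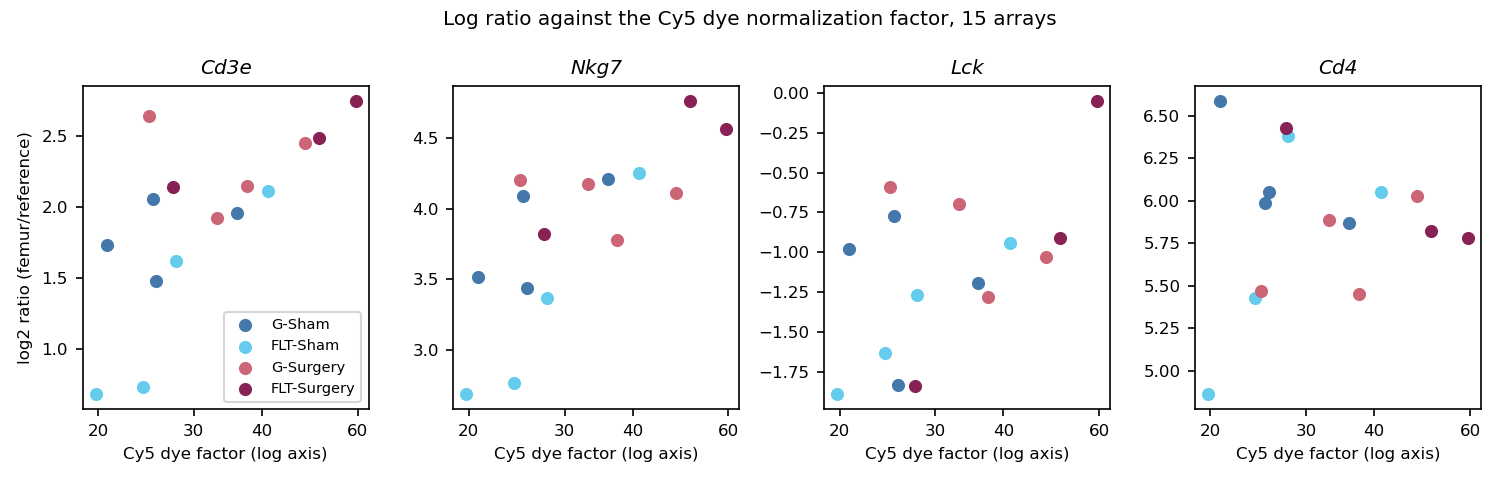
Log2 ratio of femur over reference against the Cy5 dye normalization factor (log axis), 1 point per array coloured by group, for the 4 genes above background on all 15 arrays. Nkg7 (r = 0.76) and Cd3e (r = 0.69) rise with the factor, whereas Cd4 (r = 0.07) does not.

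A wider list of 44 T cell and NK cell genes gave a similar picture of detection. All 44 had a probe, but 7 were above background on all 15 arrays, 16 on some and 21 on none. The 7 were Ccl5, a chemokine, Cd7, Gzmk, encoding granzyme K, Lef1, a transcription factor, Prf1, encoding perforin, Sh2d2a, an adaptor protein, and Thy1, a surface glycoprotein that fibroblasts also carry. Among those above background nowhere were the NK cell receptor genes Ncr1, Klrb1c, Klrd1, Klre1 and Klrk1, the effector genes Ifng and Gzmb, and Cd247, which encodes the CD3 zeta chain. The 5 receptor genes were not above background in the reference channel on any array either, so these arrays do not show whether their probes work.

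In this wider list, 12 genes were tested in each comparison. None passed the cut-off in FLT-Surgery against G-Surgery or in G-Surgery against G-Sham, where 3.14% and 2.59% of all probes did. In FLT-Sham against G-Sham 1 passed, beside 2% of all probes, and in FLT-Surgery against FLT-Sham 1 passed, beside 6.65%. Gzmk was lower in FLT-Sham than in G-Sham, with values of 1.04 to 1.78 against 2.13 to 3.45 (difference -1.43, SE 0.38, adjusted p = 0.429). It lost the cut-off in 4 of the 8 fits that left out an array, namely G-Sham replicates 1 and 3 and FLT-Sham replicates 4 and 6. The same happened with slide as a block (-1.48), further loess (-2.31) or normexp (-0.55 under its offset). Gzmm, which encodes granzyme M, passed the filter through FLT-Sham alone, being above background on 3 of 4 FLT-Sham and 0 of 3 FLT-Surgery arrays. By the bound on means it was at least 2.75-fold higher in FLT-Sham (adjusted p = 0.136 for the ratios as listed). The listed ratios were -1.22 to 1.16 in FLT-Sham and -2.92 to -1.76 in FLT-Surgery. It lost the cut-off without FLT-Surgery replicate 3 (adjusted p = 0.365) or 5 (adjusted p = 0.425) and with normexp. Under the normexp offset the difference was -0.48 instead of -2.78. Gzmm was below the filter when FLT-Sham replicate 4, 6 or 9 was left out. Its interaction, of no exact size for the same reason, was -4.08 (SE 1.01, adjusted p = 0.169). Gzmm was the only one of the 14 listed genes tested there that passed 0.01 before adjustment, beside 5.33% of all probes. In FLT-Surgery against FLT-Sham, 11 of the 12 had positive differences with a median of 0.63, beside -0.28 over all probes tested. With further loess the median over all probes was 0.35.

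Markers of other cells moved in the same comparison. In FLT-Surgery against FLT-Sham, where 6.65% of all probes passed, 3 of 7 neutrophil genes tested were lower past the cut-off, with a list median of -3.10. So were 3 of 4 erythroid genes, with a median of -4.0, and 2 of 7 skeletal muscle genes, with a median of -2.53. Monocyte and macrophage genes went the other way, with 5 of 5 tested higher and a median of 0.82, though 0 passed the cut-off. The summed Cy5 signal of the neutrophil list was 13900 to 108000 in FLT-Surgery and 145000 to 390000 in FLT-Sham, and that of the 6 erythroid genes with a probe 2800 to 27800 and 45100 to 239000. For the 10 member genes the sums were 44800 to 55100 and 29400 to 68000, but the brighter Cd4 probe, at 16500 to 52800 over the 15 arrays, carried much of them, so they say little of the other 9. Of 7 B cell genes 1 was above background on all 15 arrays and 6 on some, and none of the 4 tested in this comparison passed. The parts of these other cell types in the Cd2, Cd3e and Nkg7 values were not tested. In G-Surgery against G-Sham, 2 of 7 genes of leukocytes in general and 2 of 7 monocyte and macrophage genes tested were higher past the cut-off. None of the 7 T cell and NK cell members tested was, beside 2.59% of all probes. Of those members 6 had positive differences (median 0.49). So had 5 of the leukocyte genes (median 0.35) and 6 of the monocyte and macrophage genes (median 0.87).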

How the data were processed

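Two-colour Agilent arrays of 15 mouse femora were read as the authors deposited them, with Agilent Feature Extraction 12.0.3.1 named in the file header and 12.0 in the submitters' processing notes. Per the file headers, each spot held background-subtracted, dye-normalized intensity values in both channels and a log10 ratio of Cy5 over Cy3, which the authors' series table repeats to within 0.005. Relative to linear scaling, the deposited ratio already carried a correction that rose with intensity (Spearman 0.895 to 0.992 over spots), so it was multiplied to log2 and used without further loess. Of all spot values 20.9% were exactly 0, listed where neither channel was above background. Outlier spots, non-uniform or apart from their population, were left out, and replicate spots averaged. A probe with several spots counted as above background when at least 50% of them did.

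Groups were compared with limma 3.58.1 in R 4.3.3 (lmFit and eBayes, arrays of the groups compared, Benjamini-Hochberg over all probes tested), after tests on simulated data. Slide, replicate number, further loess, normexp with an offset of 50, median centring, Cy5 alone, filters, array weights and single arrays left out were alternatives. The offset is added to both channels and so shrinks the differences of dim probes. A gene was led by its brightest probe, and of the wider T cell and NK cell list, genes past the cut-off whose groups did not overlap were named, with counts and medians for the other lists. Permutation tests drew 100000 resamples. Members and lists were chosen with earlier results of these data known, and the dye factor relation was computed after the values were seen. The number of arrays limits the precision. Probe names came from RefSeq accessions (GRCm38.p6), while the array's header names mm9, so no gene coordinates were joined.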

Additional observations from a re-analysis of the deposited data

Results flagged for a closer look

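For 42 sets of 4 arrays (14 probes in 3 groups), the array farthest out was set against its group with Dixon's test, which chance alone would flag about 1 time in 20, or 2.1 times here, were no values tied. It marked 6, of which the 2 sets with 3 values listed at 0 would be marked whatever the remaining value, unless it too was 0. Cd3d was 3.17 on G-Sham replicate 4 against -1.78 to -1.23 on the other G-Sham arrays, and this was its only array above background. The remaining 5 rest on signals not above background in the femur. They are the second probe of Cd4 (A_52_P383089) at 0.69 on G-Sham replicate 3 against -0.30 to -0.15, the second probe of Nkg7 (A_51_P499195) at 1.51 on G-Sham replicate 4 against values listed at 0, Cd3g at -4.72 on FLT-Sham replicate 8 against -3.81 to -3.66, and the second Cd8a probe (A_52_P150547) at 1.64 on G-Sham replicate 1 against -0.23 to 0 and at 1.41 on FLT-Sham replicate 4 against values listed at 0.

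The effect of surgery on Cd2 differed between flight and ground by -2.98 in the test of the interaction in limma (adjusted p = 0.172). It passed 0.01 before adjustment and not 0.05 after it, and FLT-Surgery, the group it turns on, has 3 arrays, none of them above background for Cd2.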

How the results depend on the processing

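In settings other than the one reported, the member and named genes gave 684 values, of which 606 kept their direction and side of the cut-off, 42 had the opposite sign, 17 passed the cut-off and 19 lost it (9 for the Cd2 interaction, 7 for Gzmk and 3 for Gzmm). The number of members past the cut-off in G-Surgery against G-Sham was 0 in every setting run. In FLT-Sham against G-Sham it was 1 with array weights (beside 4690 of all 19739 probes) and 0 to 1 with 1 array left out (94 to 2071 of all probes). In FLT-Surgery against G-Surgery it was 1 with slide as a block (7.8% of all probes), in the fit of all 15 arrays (3.35%) and with array weights (12.2%). With 1 array left out it was 0 to 1 (1.56% to 12.7%). In FLT-Surgery against FLT-Sham it was 2 in the fit of all 15 arrays (Cd2 and Cd3e, beside 13.6% of all probes). It was 4 with array weights (Cd2, Cd3e, Lck and Nkg7, beside 48.5%) and 0 to 3 with 1 array left out (1.88% to 26.2%). For the interaction it was 0 with further loess, normexp, both channels above background, slide as a block or the adjusted p. It was 2 with array weights (Cd2 and Nkg7, beside 29.4% of all probes) and 0 to 1 with 1 array left out (2.51% to 17.5%). The causes were not tested, but both channels above background left Cd2 untested.

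Some signs turned. With further loess the difference was -0.09 for Cd2 in FLT-Sham against G-Sham, 0.14 for Cd28, 0.39 for Lck and 0.03 for Gzma in FLT-Surgery against G-Surgery, and 0.84 for the Cd28 interaction, and the median of all probes moved from -0.28 to 0.35 in FLT-Surgery against FLT-Sham. With normexp it was 0.22 for Lck in FLT-Surgery against G-Surgery, -0.07 for Lck and -0.01 for Nkg7 in G-Surgery against G-Sham, -0.12 for Cd4 in FLT-Surgery against FLT-Sham, and 0.23 and -0.02 for the Cd28 and Gzma interactions. With Cy5 alone it was 0.14 for Lck in FLT-Surgery against G-Surgery and -0.02 for Nkg7 in G-Surgery against G-Sham. With slide as a block it was 0.04 for Cd28 in FLT-Sham against G-Sham, 0.04 for Lck in FLT-Surgery against G-Surgery, -0.09 for Lck and 0 for Nkg7 in G-Surgery against G-Sham, and -0.36 for Cd28 in FLT-Surgery against FLT-Sham. With array weights it was 0.07 for Cd28 in FLT-Sham against G-Sham, and 0.5 for Lck and 0.13 for Gzma in FLT-Surgery against G-Surgery. With 1 array left out, Cd28 ran from -0.39 to 0.2 in FLT-Sham against G-Sham and from -0.42 to 0.7 in FLT-Surgery against FLT-Sham, Lck from -0.47 to 0.42 and Gzma from -1.71 to 0.02 in FLT-Surgery against G-Surgery, Gzma from -0.04 to 1.43 in G-Surgery against G-Sham, and the interactions of Lck from -0.24 to 0.66 and of Gzma from -0.86 to 0.87.

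Over all probes tested, the share past the cut-off in FLT-Surgery against FLT-Sham was 6.65% as reported and 0.0836% to 48.5% in other settings. The replicate numbers do not pair the mice, since deviations of same-numbered arrays correlated from -0.41 to 0.34. With the replicate block, 0 members passed in FLT-Surgery against G-Surgery and 0 in G-Surgery against G-Sham. FLT-Sham shares too few numbers with the other groups for a block to be fitted.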

Other observations

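Some probes were above background in the femur on 1 array alone, as were 7175 probes of the whole array, most often on G-Surgery replicate 1 (1206 probes) and G-Sham replicate 4 (927 probes). The genes named here were chosen after their values were seen. On G-Surgery replicate 1 these were both probes of Cd8a and the brighter probe of Cd27, a T cell co-stimulatory receptor. That Cd27 probe had a log2 ratio of 2.14 against at most 1.26 elsewhere, while its other probe was above background on no array. The B cell gene Cd79a, at 3.01 against at most 2.01, was also above background on this array alone. The same array held the highest Gzma ratio of the series, 1.82. On G-Sham replicate 4 they were Cd3d, one probe of Bcl11b, a transcription factor of T cell development, at 1.78 against at most -2.70 elsewhere, and the second probe of Lef1 at 0.76 against at most -2.21 elsewhere. The brighter Lef1 probe was -0.88 on that array, inside its range over the other arrays. On FLT-Sham replicate 4 the probe of Fasl, encoding the Fas ligand of cytotoxic cells, was 3.6 against at most 0 elsewhere.

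Il7r, the interleukin 7 receptor gene, was above background on FLT-Surgery replicate 1 alone. Its log2 ratio there was 9.24 with a Cy5 signal of 3600, against 1.26 or less and signals of at most 29.3 on the other 14 arrays. On the same array Cd3e (2.14) and Nkg7 (3.82) were the lowest of their group, Lck was -1.84 and Cd28 -2.71.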
